A study of Homo sapiens with 6 samples.

Results

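The HOX cluster genes are the homeobox genes of the 4 HOX clusters, HOXA on chromosome 7, HOXB on chromosome 17, HOXC on chromosome 12 and HOXD on chromosome 2. The genes were chosen by name alone, as every row of the deposited count table that is called HOXA, HOXB, HOXC or HOXD followed by a number. Of the 33451 genes in the table, 22 met this rule, 4 in HOXA, 6 in HOXB, 9 in HOXC and 3 in HOXD. GENCODE 29, a gene annotation of the human genome build GRCh38, holds 39 such genes, and 17 of them are not listed in the table: 7 of HOXA, 4 of HOXB and 6 of HOXD. The HOXC cluster was listed in full. Messenger RNA was sequenced from MDA-MB-453, an established human breast cancer cell line of luminal type that lacks the estrogen receptor. The cells of the 25(OH)D group received 100 nM 25-hydroxyvitamin D, the precursor from which cells make the active hormone of the vitamin D receptor, and the control cells received its solvent, alcohol, both for 5 days in the same serum-containing medium. Each group had 3 libraries of this 1 line, with totals between 33268860 and 40928176 counts. The study's methods call the libraries of a group biological replicates, and the labels do not say how they were separated, so the p-values cover the spread between these libraries.

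HOX proteins are transcription factors that bind DNA through a homeodomain and give cells their position along the body axis. Within each cluster the genes are numbered by paralog group, from the anterior end of the body (low numbers) to the posterior end (high numbers), and neighbouring genes often share regulatory DNA and overlapping transcripts. HOX proteins bind DNA together with cofactors of the TALE class of homeodomain proteins, the PBX and MEIS families. In the mammary gland several HOX genes are expressed during development, and in breast cancers individual HOX genes are found both raised and lowered.

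The identity of the line was looked at first. The 9 luminal epithelial markers summed to between 4590 and 4731 CPM in control and between 4998 and 5076 CPM with 25(OH)D, where CPM are TMM-scaled counts per library. Of these 9 markers 5 rose, KRT7 most (log2 fold change 0.88), and 3 fell, GATA3 (-0.80), FOXA1 (-0.46) and KRT19 (-0.41), so the sum does not stand for each of them. The estrogen receptor gene ESR1 and its target PGR had 8 counts or fewer in every library, and the 3 listed endothelial markers had 12 or fewer. The 5 basal markers summed to between 6.29 and 10.4 CPM, nearly all of it MYH11. The fibroblast sum, 32.0 to 38.9 CPM, was nearly all COL1A1, with DCN and LUM at 6 counts or fewer. Of the blood cell markers, CD68, a lysosomal protein gene, rose from 167, 211 and 192 counts in control to 543, 498 and 628 with 25(OH)D, while PTPRC had 6 counts or fewer and CD3E 2 or fewer. Of the 2189 exon bases of CD68, 1789 are shared on the same strand with exons outside CD68, so its reads cannot be assigned to it alone. The part of any other cell type in the HOX results was not tested, and in bulk RNA fewer cells of a kind and less RNA per cell cannot be told apart.

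In control cells the HOX expression was that of the HOXC cluster plus 2 anterior HOXB genes. A gene was taken as expressed in control when every control library had more than 3 counts and the mean was at least 1 CPM. This held for 9 of the 22 listed genes: HOXB2, HOXB3, HOXC4, HOXC6, HOXC8, HOXC9, HOXC10, HOXC11 and HOXC13. No HOXA and no HOXD gene met it. HOXC genes took 89.2%, 88.1% and 90.2% of all HOX counts in the 3 control libraries and HOXB genes 9.83%, 11.1% and 9.43%, and the HOXA and HOXD genes together made up the remainder. Within HOXC, the genes that did not meet it were HOXC12, with 0, 0 and 7 counts in control and 0, 0 and 4 with 25(OH)D, and HOXC5, whose control mean of 0.754 CPM was below this level but above 0.5 CPM.

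Levels between genes were compared per length, as the RPKM values deposited by the authors (counts scaled to the exon length of the gene and to the library total). HOXC10, a posterior gene known from the specification of hindlimb motor neurons, had the highest control level, 31.9 ± 1.15 RPKM (SD, n = 3). HOXC9, a gene of the thoracic body region, followed with 14.01 ± 0.547 RPKM (SD, n = 3). Then came HOXC11 at 5.18 ± 0.294, HOXC8 at 4.74 ± 0.198 and HOXC6 at 4.61 ± 0.445 RPKM (SD, n = 3 each), and these 3 neighbours in the order overlapped in their library values. Below them were HOXC13 at 3.73 ± 0.224, HOXB2 at 2.91 ± 0.263, HOXC4 at 2.45 ± 0.154 and HOXB3 at 1.47 ± 0.191 RPKM (SD, n = 3 each). HOXB2 and HOXC4 overlapped in their library values, and the other neighbours in this order did not. The order of level did not follow the order along the chromosome, since the low HOXC12 lies between HOXC11 and HOXC13.

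With 25(OH)D, HOXC10 and HOXC9 were still the highest, at 35.2 ± 1.74 and 11.9 ± 1.05 RPKM (SD, n = 3 each). HOXC8 (3.86 ± 0.341), HOXB2 (3.84 ± 0.217), HOXC11 (3.79 ± 0.489) and HOXC6 (3.56 ± 0.229 RPKM, SD, n = 3 each) then formed a run whose neighbours overlapped. HOXB2, seventh in control, thus stood level with HOXC8, HOXC11 and HOXC6 in these libraries. HOXC13 (2.52 ± 0.244), HOXC4 (2.24 ± 0.526) and HOXB3 (1.59 ± 0.0143 RPKM, SD, n = 3 each) were the lowest of the 9.

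**Figure D1:**
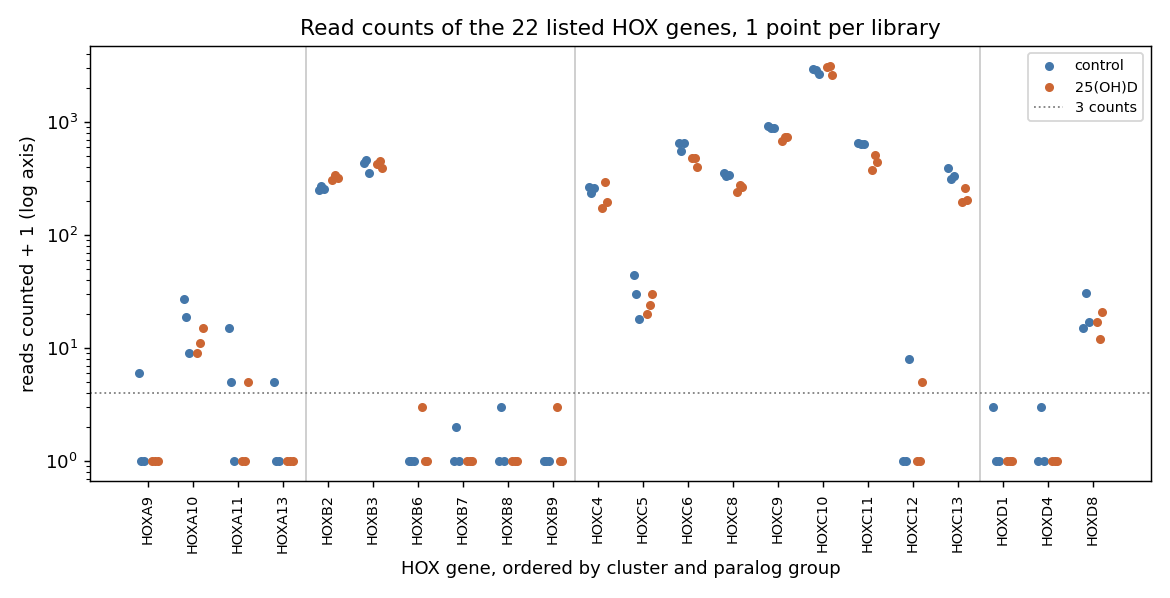
Reads counted on each of the 22 listed HOX genes (vertical log axis, counts plus 1), with 1 point per library, 3 control libraries in blue and 3 with 25(OH)D in orange, ordered by cluster. The 9 genes expressed in control lie above 150 counts in every library, while 10 genes never exceed 14 counts.

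The homeobox sequences show how far reads of these similar genes can be told apart. For the 5 genes whose level differed between the groups, a stretch of 60 bases around the codons of the DNA-contacting helix is printed from the GENCODE 29 transcripts, 5′ to 3′ on the coding strand, with the 18 bases that encode the conserved helix motif in capitals.
HOXB2: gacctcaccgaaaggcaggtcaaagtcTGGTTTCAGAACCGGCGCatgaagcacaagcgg
HOXC6: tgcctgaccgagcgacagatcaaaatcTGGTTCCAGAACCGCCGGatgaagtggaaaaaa
HOXC10: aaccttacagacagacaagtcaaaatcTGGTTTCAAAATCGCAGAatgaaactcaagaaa
HOXC11: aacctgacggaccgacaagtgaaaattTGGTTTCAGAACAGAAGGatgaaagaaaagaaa
HOXC13: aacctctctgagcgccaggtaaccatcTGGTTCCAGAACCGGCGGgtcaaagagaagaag
On GRCh38 these lie in the coding exons at chr17:48543539-48543598 (minus strand) for HOXB2 and, on the plus strand, at chr12:54029789-54029848 for HOXC6, chr12:53989333-53989392 for HOXC10, chr12:53975306-53975365 for HOXC11 and chr12:53945155-53945214 for HOXC13. All 39 HOX genes of the annotation carry the motif once. Across the 36 pairs among the 9 expressed genes, the 180 bases of the homeobox were between 50.6% and 75.6% identical, and the longest run of identical bases was 20. No stretch of 100 bases of HOXB2, HOXC8, HOXC9, HOXC11 or HOXC13 transcripts occurred in another gene. For HOXC10 3.1% of such stretches, for HOXB3 4.27%, for HOXC6 11.1% and for HOXC4 14.7% also occurred in a gene that overlaps it in the cluster.

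The comparison of the groups asked how 25(OH)D changed each of these levels. Changes were tested gene by gene over the 18183 genes that passed the low-count filter, and 12 of the 22 HOX genes passed it, HOXA10, HOXB2, HOXB3, HOXD8 and 8 of the 9 HOXC genes. HOXB2 and HOXC10 rose and HOXC13, HOXC11 and HOXC6 fell, by the edgeR quasi-likelihood test at a Benjamini-Hochberg adjusted p under 0.05, and 7 genes did not pass. These 5 of 12 are 41.7%, against 33.8% of all genes tested. The 2 that rose are 16.7% of the 12, against 17.3% of all genes, and the 3 that fell are 25%, against 16.5%. In 6 of the 12 (50%) the control and 25(OH)D libraries did not overlap, against 45.7% of all genes. The study's figure legend set the limits for a changed gene at an absolute log2 fold change over 1 with a p under 0.05. With the unadjusted p of the quasi-likelihood test, none of the 12 passed these limits, which 6.65% of all genes did. The median log2 fold change of the 12 was -0.20, beside -0.01 over all genes, with 9 values below 0 and 3 above. The shares of HOX genes that changed thus lay near those of the whole table, and the changes were small.

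**Figure D2:**
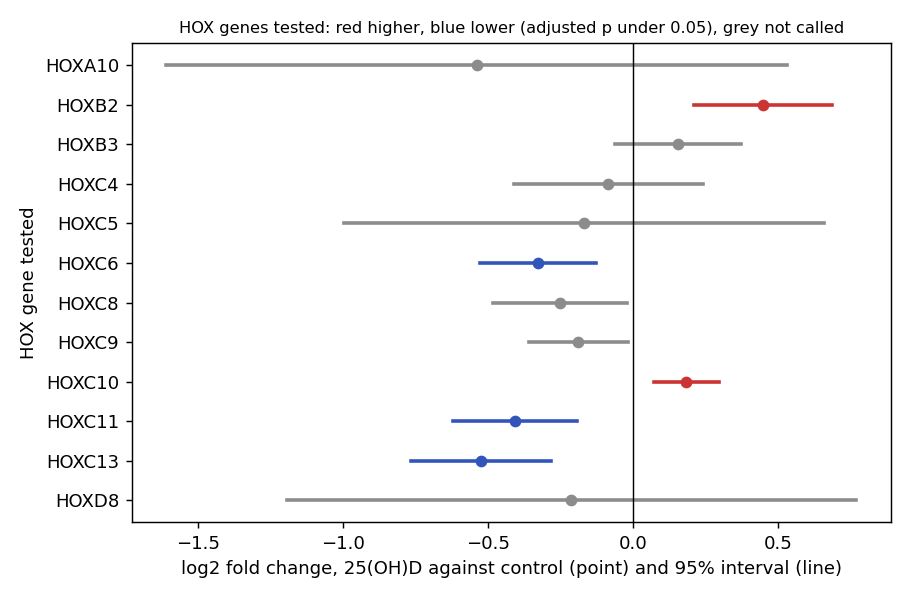
Log2 fold change of 25(OH)D against control for the 12 HOX genes tested (points) with the 95% interval (lines), red for genes that rose, blue for genes that fell and grey for those that did not pass the test. The 5 coloured intervals lie on one side of 0 and within 1 of it, those of HOXC8 and HOXC9 end just below 0, and the widest intervals, those of HOXA10, HOXC5 and HOXD8, belong to genes with few reads.

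HOXC13 (chromosome 12, 53938765 to 53946544, plus strand), at the posterior end of the cluster and known for its role in hair and nail formation, fell most among the genes that passed the test. It had 9.34, 8.30 and 9.10 CPM in the control libraries and 5.60, 6.74 and 6.23 CPM with 25(OH)D. Every 25(OH)D library was below every control library, and the level fell by 30.5%. The log2 fold change was -0.53 (SE 0.112, adjusted p = 0.00217 by the edgeR quasi-likelihood test). Omitting any one of the 6 libraries left it between -0.59 and -0.45.

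HOXC11 (chromosome 12, 53973126 to 53977643, plus strand), its neighbour beyond HOXC12 and a posterior gene of the hindlimb region, had 15.6, 17.0 and 17.5 CPM in control and 10.7, 13.4 and 13.6 CPM with 25(OH)D. The groups did not overlap, and the first 25(OH)D library was the lowest. The log2 fold change was -0.41 (SE 0.0988, adjusted p = 0.00516 by the edgeR quasi-likelihood test), a level that fell by 24.6%. It passed the test with each library left out in turn.

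HOXC6 (chromosome 12, 53990624 to 54030823, plus strand), a gene of the upper thoracic region that is also expressed in the developing mammary gland, had 15.9, 14.6 and 17.8 CPM in control and 13.8, 12.5 and 12.2 CPM with 25(OH)D. The groups lay side by side without overlap, 12.2 to 13.8 against 14.6 to 17.8 CPM. The log2 fold change was -0.33 (SE 0.0932, adjusted p = 0.0139 by the edgeR quasi-likelihood test), a level that fell by 20.3%. The call was lost without control library 3 (log2 fold change -0.24, adjusted p = 0.08), without 25(OH)D library 2 (-0.30, adjusted p = 0.0596) and without 25(OH)D library 3 (-0.28, adjusted p = 0.0538), each by the same test. HOXC6 shares exon bases on the same strand with HOXC4 (484), HOXC9 (73) and RP11-834C11.14, an unnamed gene (305). Reads of these common parts cannot be assigned to a single gene.

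HOXC10 (chromosome 12, 53985065 to 53990279, plus strand) lies between HOXC11 and HOXC9 and moved in the other direction. It had 71.0, 76.1 and 73.0 CPM in control and 87.8, 82.4 and 79.7 CPM with 25(OH)D. All 3 of the 25(OH)D libraries were above all 3 control libraries, by a margin from 76.1 to 79.7 CPM. The log2 fold change was 0.18 (SE 0.0516, adjusted p = 0.0135 by the edgeR quasi-likelihood test), a level 13.5% higher. This was the smallest change among the called HOX genes, and it did not pass without 25(OH)D library 1 (log2 fold change 0.15, adjusted p = 0.0663 by the same test) or when libraries were scaled by their totals alone (0.14, adjusted p = 0.0527). HOXC10 shares 166 exon bases on the same strand with RP11-834C11.12, an unnamed gene of 777 exon bases with 1493, 1413 and 1404 counts in control and 1675, 1580 and 1372 with 25(OH)D, whose log2 fold change was 0.23 (SE 0.0658, adjusted p = 0.0135 by the same test) and also did not pass without 25(OH)D library 1 (0.17, adjusted p = 0.0711). The other 611 exon bases of RP11-834C11.12 lie in HOXC5, which had 43 counts or fewer in every library. The rise of RP11-834C11.12 can therefore not be read as a result separate from that of HOXC10. What the shared bases add to the value of HOXC10 was not tested.

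HOXC9 (chromosome 12, 53994895 to 54003337, plus strand) and HOXC8 (chromosome 12, 54009106 to 54012362, plus strand), genes of the thoracic region, had lower fitted levels that did not pass the test. HOXC9 had 22.1, 23.5 and 24.0 CPM in control and 19.5, 19.0 and 22.5 CPM with 25(OH)D, where the third 25(OH)D library lay among the controls. Its log2 fold change was -0.19 (SE 0.0790, adjusted p = 0.0826 by the edgeR quasi-likelihood test), and it passed without that library (-0.26, adjusted p = 0.0228). HOXC8 had 8.45, 8.78 and 9.26 CPM in control and 6.86, 7.23 and 8.16 CPM with 25(OH)D, without overlap. Its log2 fold change was -0.25 (SE 0.107, adjusted p = 0.0871 by the same test). When libraries were scaled by their totals alone both passed, with adjusted p = 0.0322 for HOXC9 and 0.0448 for HOXC8, and the median over all genes then shifted by -0.04.

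HOXC4 (chromosome 12, 54016931 to 54056030, plus strand), at the anterior end and known from B lymphocytes as an activator of the AID gene, showed no detectable difference. It had 6.44, 6.24 and 7.09 CPM in control and 4.89, 7.70 and 5.98 CPM with 25(OH)D. The spread among the 25(OH)D libraries was wider than the distance between the groups, and the second of them was the highest of all 6. Its log2 fold change was -0.09 with a 95% interval from -0.41 to 0.24 (adjusted p = 0.711 by the edgeR quasi-likelihood test). HOXC5 (chromosome 12, 54032853 to 54035358, plus strand) had 43, 29 and 17 counts in control and 19, 23 and 29 with 25(OH)D, with overlapping groups and a log2 fold change of -0.17 with a 95% interval from -0.997 to 0.656 (adjusted p = 0.775). Of its 1805 exon bases, 1081 lie also in RP11-834C11.14 and 611 in RP11-834C11.12, so its few reads are uncertain.

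Summed over the cluster, the falls and the rise nearly cancelled. The HOXC genes together had 149.8, 155.3 and 158.4 CPM in control and 149.7, 149.6 and 149.3 CPM with 25(OH)D, where the lowest control library was within 0.5 CPM of the 25(OH)D libraries. The makeup of the sum differed more than its size. HOXC10 took 47.7%, 49.3% and 46.3% of the reads of the 7 expressed HOXC genes in control, and 58.9%, 55.3% and 53.7% with 25(OH)D. The ratio of HOXC10 to HOXC11 counts was 4.56, 4.48 and 4.17 in control and 8.19, 6.15 and 5.87 with 25(OH)D. Neither measure overlapped between the groups, but both were chosen after the values of the genes were seen and are given as a description without a test.

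**Figure D3:**
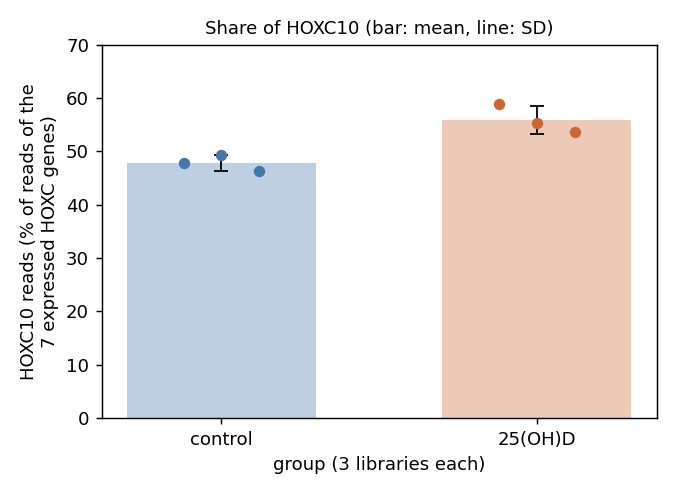
Reads of HOXC10 as a percentage of the reads of the 7 expressed HOXC genes (vertical axis), with 1 point per library, the bar at the group mean and the line for the SD of 3 libraries. The control points lie between 46.3% and 49.3% and the 25(OH)D points between 53.7% and 58.9%.

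**Figure D4:**
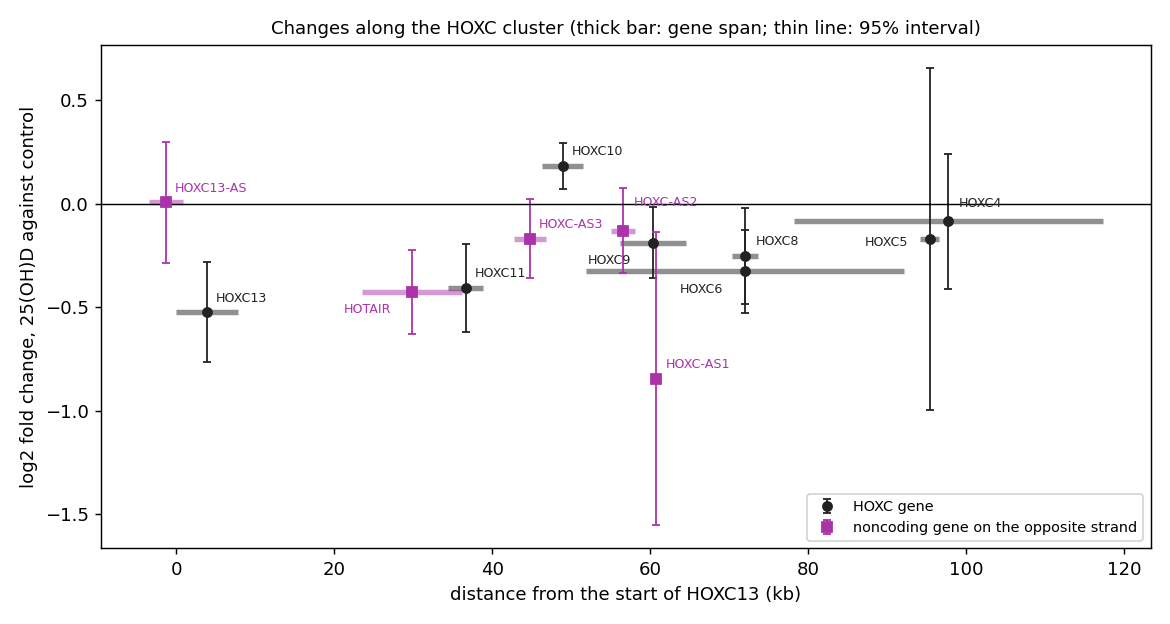
Log2 fold change of 25(OH)D against control (vertical axis) along the HOXC cluster, with the distance from the start of HOXC13 in kilobases on the horizontal axis, HOXC genes in black and the noncoding genes of the opposite strand in purple. Thick bars give the extent of each gene and thin lines the 95% interval; HOXC10 is the HOX gene above 0, and the intervals of HOXC13, HOTAIR, HOXC11 and HOXC6, which fell, and of HOXC8, HOXC9 and HOXC-AS1, which did not pass the adjusted test, lie below it.

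In the HOXB cluster the rise was that of HOXB2. HOXB2 (chromosome 17, 48540894 to 48544989, minus strand), which acts in the hindbrain and in facial motor neurons, had 6.004, 7.17 and 6.93 CPM in control and 8.71, 8.92 and 9.73 CPM with 25(OH)D. The groups were well apart, with a level 36.2% higher. The log2 fold change was 0.45 (SE 0.110, adjusted p = 0.00603 by the edgeR quasi-likelihood test), and it passed under every normalization, filter and test tried on all 6 libraries and with each library left out in turn. HOXB3 (chromosome 17, 48548870 to 48604912, minus strand), its neighbour with a like role in the hindbrain, had 10.5, 12.3 and 9.64 CPM in control and 12.2, 11.9 and 12.1 CPM with 25(OH)D. Its control libraries spanned the 25(OH)D libraries, and its log2 fold change of 0.16 with a 95% interval from -0.06 to 0.37 did not pass (adjusted p = 0.267 by the same test). The HOXB sum was 16.5, 19.6 and 16.6 CPM in control and 21.0, 20.8 and 21.8 CPM with 25(OH)D, without overlap. With 3 libraries against 3 an exact permutation test of such a sum cannot give a two-sided p below 0.1. HOXB6, HOXB7, HOXB8 and HOXB9 had 2 counts or fewer in every library.

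The HOXA and HOXD genes were at the edge of detection in both groups. HOXA10, a gene of the uterus and the posterior limb, had 26, 18 and 8 counts in control and 8, 10 and 14 with 25(OH)D, with overlapping groups (log2 fold change -0.54, 95% interval from -1.61 to 0.53, adjusted p = 0.446 by the edgeR quasi-likelihood test). HOXD8 had 14, 30 and 16 counts in control and 16, 11 and 20 with 25(OH)D (log2 fold change -0.21, 95% interval from -1.19 to 0.77, adjusted p = 0.762 by the same test). At these counts the intervals were wide, and changes of the sizes that lie within them were not excluded. The other listed genes were not tested: HOXA11 had 14, 4 and 0 counts in control and 0, 0 and 4 with 25(OH)D, HOXA9 had 5, 0 and 0 against 0 throughout, HOXA13 had 4, 0 and 0 against 0 throughout, and HOXD1 and HOXD4 had 2 counts or fewer in every library. The cluster sums stayed between 0.217 and 1.18 CPM for HOXA and between 0.286 and 0.846 CPM for HOXD, and overlapped between the groups.

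The noncoding RNA genes inside the clusters lie among the HOX genes, mostly on the opposite strand. Of 28 such genes, 16 were listed and 10 tested, 1 rose and 1 fell, where 33.8% of all genes were called, and their median log2 fold change was -0.15, beside -0.01 over all genes. HOTAIR (chromosome 12, 53962308 to 53974956, minus strand), a long noncoding RNA between HOXC12 and HOXC11, reaching into the span of HOXC11, that is known for its link to silencing of HOXD and to breast cancer metastasis, had 17.2, 20.6 and 21.7 CPM in control and 14.96, 13.8 and 15.5 CPM with 25(OH)D. It fell without overlap of the groups, with a log2 fold change of -0.43 (SE 0.0942, adjusted p = 0.00276 by the edgeR quasi-likelihood test), beside the -0.41 of HOXC11 next to it. HOXB-AS1 (chromosome 17, 48543551 to 48551250, plus strand), antisense to HOXB2 and HOXB3, had 9.27, 10.9 and 8.88 CPM in control and 11.9, 12.2 and 13.5 CPM with 25(OH)D. It rose with a log2 fold change of 0.37 (SE 0.102, adjusted p = 0.0113 by the same test), as did HOXB2, with which it shares 87 exon bases on opposite strands. HOXB-AS1 shares more, 374 of its 1559 exon bases, with HOXB3 on opposite strands, and 58 with HOXB-AS3 on the same strand. Neither HOXB3 nor HOXB-AS3 passed the test. HOXC13-AS, which shares 172 exon bases with HOXC13 on the opposite strand, had 4.76, 4.76 and 4.70 CPM in control and 5.35, 4.24 and 4.70 CPM with 25(OH)D, a log2 fold change of 0.01 (SE 0.135, adjusted p = 0.980 by the same test). HOXC-AS1, HOXC-AS2, HOXC-AS3 and HOXB-AS3 did not pass (log2 fold changes -0.85, -0.13, -0.17 and 0.34, adjusted p between 0.0629 and 0.322).

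The kit marked the strand of each read, but whether the counting used it is not given in the sources used here. In the table, 410 of the 509 genes that lie wholly within exons of a gene on the opposite strand had 10 or more counts. One of them, HOTAIR_3, lies within HOTAIR, with 170, 160 and 181 counts in control and 112, 117 and 109 with 25(OH)D. Of the 471 genes wholly within exons of a gene on the same strand, 416 had 10 or more counts. Reads on shared bases thus appear to have been counted for each gene that holds them. Sums over the HOXC genes may therefore hold such reads repeatedly. The counts of genes within opposite-strand exons do not decide the strand setting, since a gene on the opposite strand can have reads of its own. Whether reads of a HOX gene and of its antisense partner were kept apart over their common bases is therefore not known. Among the HOX genes tested, HOXC8, HOXC11 and HOXD8 share no exon bases with another gene on either strand.

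The HOXC cluster also holds a microRNA gene, MIR196A2, between HOXC10 and HOXC9. Its mature product is known to silence HOX messages through sites in their 3′ ends, best known from HOXB8, which had 2 counts or fewer here. The mature sequence from RefSeq (hairpin on GRCh38.p14 at chr12:53991738-53991847, plus strand, inside the span of HOXC6) is shown with its seed, bases 2 to 8, in capitals, and below it the HOXC8 sites of 23 bases with the match to the seed in capitals, in GENCODE 29 coordinates at chr12:54011494-54011516 and chr12:54012230-54012252, plus strand.
hsa-miR-196a-5p: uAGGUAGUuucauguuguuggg
HOXC8 first site: acactcacaactctaACTACCTg
HOXC8 second site: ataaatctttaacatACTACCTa
The letters ACTACCT, read on the message strand, occurred in the 3′ UTR of 9 of the 39 HOX genes (23.1%), against 7.9% of 19133 protein-coding genes, and among the 9 HOX genes expressed in control in that of HOXC8 alone. A match of letters is not a measured site. Libraries of mRNA do not measure the mature microRNA, and the reads on the MIR196A2 gene were 43, 56 and 44 in control and 37, 45 and 35 with 25(OH)D (log2 fold change -0.17, adjusted p = 0.677 by the edgeR quasi-likelihood test).

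The cofactors with which HOX proteins bind DNA were given by a list of 19 genes, the TALE class and its partner PBXIP1, of which 18 were listed and 15 tested. Of these, 7 rose, where 17.3% of all genes did, 1 fell, where 16.5% did, and 7 did not pass. The median log2 fold change was 0.18, beside -0.01 over all genes. One gene, PKNOX2, passed the low-count filter only through the 25(OH)D libraries, and of the 14 others 6 rose and 1 fell, with a median of 0.15. MEIS2 (chromosome 15, 36889204 to 37101299, minus strand) had 18.8, 19.4 and 17.2 CPM in control and 39.6, 39.7 and 45.4 CPM with 25(OH)D, more than any change seen in a HOX gene. Its log2 fold change was 1.17 (SE 0.0751, adjusted p = 2.25e-08 by the edgeR quasi-likelihood test). MEIS1, MEIS3 and PKNOX1 did not pass, with log2 fold changes of -0.09, 0.36 and 0.12.

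IRX3, a TALE gene of limb and heart development, and TGIF1, a repressor in TGF-beta signalling, rose too. IRX3 had 154.2, 161.9 and 173.4 CPM in control and 259.2, 264.3 and 297.8 CPM with 25(OH)D (log2 fold change 0.75, SE 0.0562, adjusted p = 1.27e-07 by the edgeR quasi-likelihood test). TGIF1 had 11.36, 11.37 and 11.98 CPM in control and 16.3, 14.9 and 18.1 CPM with 25(OH)D (log2 fold change 0.51, SE 0.0898, adjusted p = 4.98e-04 by the same test). PBXIP1 rose too, but not without control library 2 (log2 fold change 0.14, adjusted p = 0.0741). PKNOX2, the other gene of the class beside MEIS2 past a log2 fold change of 1 and named here after its values were seen, had 9, 7 and 6 counts in control and 31, 40 and 26 with 25(OH)D. IRX4 fell from 2.74, 2.80 and 2.88 CPM to 1.85, 2.16 and 1.87 CPM (log2 fold change -0.51, SE 0.178, adjusted p = 0.0389 by the same test), a call that was not made by DESeq2 (adjusted p = 0.127), with the replicate number as a block (0.0607) or without the low-count filter (0.0657) and that, of the 6 omissions of a library, held without 25(OH)D library 2 alone (adjusted p between 0.0740 and 0.106 in the others).

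**Figure D5:**
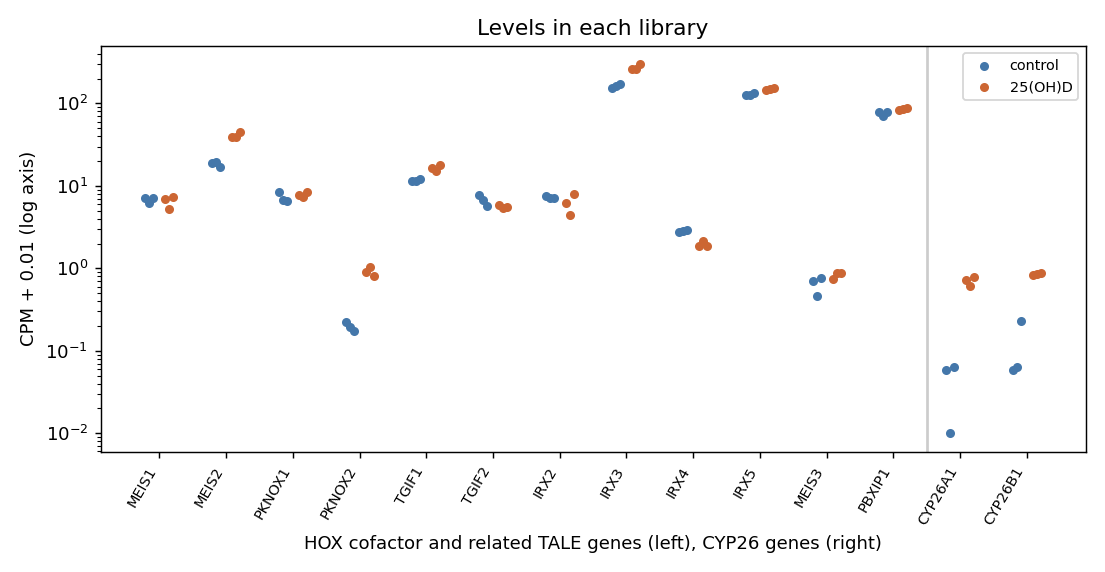
CPM plus 0.01 (vertical log axis) in each library for 12 of the 15 genes tested in the list of TALE genes and PBXIP1, and right of the grey line for CYP26A1 and CYP26B1, control in blue and 25(OH)D in orange. MEIS2, PKNOX2, IRX3 and the CYP26 genes show the widest distance between the colours.

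Regulators of HOX transcription were given by a list of trithorax proteins, other chromatin and transcription proteins, retinoic acid receptors, CDX factors and enzymes that degrade retinoic acid. Of its 17 genes tested, 2 were called higher, 4 fell and 11 did not pass, where 33.8% of all genes were called. The median log2 fold change was -0.10, beside -0.01 over all genes. Both called genes outside those that fell were enzymes that break down retinoic acid, an inducer of anterior HOX genes. CYP26A1 had 2, 0 and 2 counts in control and 25, 23 and 25 with 25(OH)D, and CYP26B1 had 2, 2 and 8 against 29, 32 and 28. They passed the low-count filter only through the 25(OH)D libraries in which they are high, so their calls are no support for a direction of the list, and both stayed below 1 CPM. Of the 4 genes that fell, MLLT1, MLLT3 and PSIP1 fell by 0.72, 0.42 and 0.38 on the log2 scale (adjusted p = 1.55e-07, 0.0148 and 2.39e-05 by the edgeR quasi-likelihood test). KMT2A, a trithorax protein gene whose product keeps HOX genes active, did not pass (log2 fold change 0.02, adjusted p = 0.783 by the same test). Neither did KMT2B, MEN1, WDR5, ASH2L, RBBP5, DPY30, DOT1L and AFF1 (adjusted p between 0.1085 and 0.936 by the same test), so the falls do not stand for the list as a whole. CTCF, which bounds domains within HOX clusters, had 257.7, 220.5 and 220.4 CPM in control and 190.4, 186.4 and 225.8 CPM with 25(OH)D, and fell by 0.21 (adjusted p = 0.0347 by the same test), although 25(OH)D library 3 lay among the controls. The call of CTCF was not made by DESeq2 (log2 fold change -0.21, adjusted p = 0.199) and was lost without control library 1 and without 25(OH)D library 1 or 2 (adjusted p = 0.170, 0.146 and 0.171). That of MLLT3 was lost without control library 1 and without 25(OH)D library 2 or 3 (adjusted p = 0.0616, 0.0515 and 0.0671). CDX1 and CDX2 had 2 counts or fewer in every library.

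Most genes that flank the clusters and most homeobox genes elsewhere in the genome did not pass the test, where 33.8% of all genes did. Of the 17 flanking genes tested, 3 rose (TAX1BP1, ATP5G3 and CALCOCO1) and 3 fell (HNRNPA1, CBX1 and CALCOCO2), with a median log2 fold change of -0.08. The call of CALCOCO2 was lost without 25(OH)D library 2 (adjusted p = 0.0527). On the chromosome of HOXC, HNRNPA1 fell by 0.48 and CALCOCO1 rose by 0.28 on the log2 scale. SMUG1 and CBX5, which lie between HOXC4 and HNRNPA1, did not pass. Their log2 fold changes were -0.22 and -0.08 (adjusted p = 0.168 and 0.1095 by the edgeR quasi-likelihood test). Of the 11 other homeobox genes of the same ANTP class that were tested, MSX2 and MNX1 fell, by 0.55 and 0.65 on the log2 scale. None of the 11 rose by the edgeR quasi-likelihood test, with 1 gene, BARX2 (named here after its values were seen), higher at an unadjusted p under 0.05, and none rose by DESeq2.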

How the data were processed

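mRNA of MDA-MB-453 cells was sequenced by the authors with a stranded library kit, in 3 libraries of cells with 100 nM 25(OH)D for 5 days and 3 with solvent, and groups and replicate numbers were taken from the sample titles. The authors deposited whole-number read counts per gene without normalization. The authors also deposited RPKM values, which equal the count divided by gene length and library total (largest relative difference 2.23e-13). The submitters' processing notes name Trimmomatic 0.36, featureCounts of Subread 1.5.1, edgeR 3.12.1 and GRCh38; the aligner and the strand setting are not given in the sources used here.

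Counts were tested in R 4.3.3 with edgeR 4.0.16 (TMM, low-count filter with a minimum count of 10, quasi-likelihood test without covariates, biological coefficient of variation 0.0788). The p-values of the 18183 genes tested were adjusted by the Benjamini-Hochberg method. A count of 3 corresponded to between 0.0733 and 0.0902 CPM before TMM scaling, which limits precision at low counts, as did library totals between 33268860 and 40928176. Replicate libraries of a group were not duplicates, with a chi-square per gene from 4.01 to 12.1 for their counts. Alternatives were other scalings and filters, DESeq2 1.42.0, limma 3.58.1 on log2(RPKM + 1) and log2(RPKM + 0.1), the replicate block, each library left out and genes with shared exon bases left out. The fits were tested on simulated data. Sequences and exons came from GENCODE 29 and RefSeq, and tables and plots were made in Python 3.11.15 with pandas 2.3.3, numpy 2.4.6 and matplotlib 3.10.9.

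Every HOX gene listed is described, and from the other lists the genes with the smallest p in each direction and those sharing exon bases with a HOX gene are named, except that further genes covered by this rule are not reported here. The members and the lists were chosen with earlier results of these data known.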

Additional observations from a re-analysis of the deposited data

How the results depend on the processing

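HOXB2, HOXC11 and HOXC13 kept their direction and their side of the threshold under every alternative scaling, filter, test and omission of a library. Over the alternatives, 156 log2 fold changes of HOX genes kept direction and side of the threshold, 8 no longer passed, 9 newly passed and 4 changed sign. The number of HOX genes that rose was 1 in place of 2 with upper-quartile factors, with library totals alone and with limma on log2(RPKM + 1) or log2(RPKM + 0.1), where HOXC10 did not pass, and the number that fell was then 5 in place of 3, with HOXC8 and HOXC9 added. It was also 1 without genes that share exon bases on the same strand. Where a call also needed a log2 fold change beyond 1, at an unadjusted p, it was 0 in each direction, and 2 genes of the TALE list rose and 0 fell. The number of genes of the TALE list that fell was 0 with no low-count filter, with DESeq2 and with the replicate block. Omitting single libraries, between 1 and 2 HOX genes rose, between 2 and 3 fell, and between 0 and 1 gene of the TALE list fell. Without genes that share exon bases on the same strand, 4 HOX genes in place of 9 were expressed in control, because fewer genes entered.

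Over the omissions the log2 fold change ran from -0.27 to 0.064 for HOXC4, from -0.41 to 0.14 for HOXC5 and from -0.48 to 0.23 for HOXD8, with values above 0 without 25(OH)D library 1 (HOXC4), without control library 1 (HOXC5), and without control library 2 or 25(OH)D library 2 (HOXD8, 0.045 for the latter); none of these genes passed the test in any fit. Across the omissions HOXC10 stayed between 0.15 and 0.22 and HOXC6 between -0.39 and -0.24. The cause of these shifts was not tested. Replicate numbers are shared by the groups, and the labels do not say whether they pair the libraries. Deviations of same-numbered libraries had correlations of -0.07, -0.01 and -0.05, which shows no shared effect of the number but not how the cultures were set up. With the replicate number as a block 2 HOX genes rose and 3 fell, the same genes as without it, and 7 genes of the TALE list rose. The share of all calls that were higher was 51.1% and lay between 42.3% and 54.2% over the alternatives. Counts under 50 per library limit what can be said of the HOXA and HOXD genes and of HOXC5.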
